A study of Homo sapiens with 5 samples.

Results

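The genes described here encode the machinery that shortens the poly(A) tail of mRNAs, degrades the mRNA body and removes mRNAs with premature stop codons. They were chosen by gene name: the CNOT, EXOSC, UPF and DIS3 genes, the SMG genes, XRN1 and XRN2, EDC3 and EDC4, PAN2 and PAN3, the SKIV2L genes, TTC37, PARN, PATL1, TOB1 and TOB2, BTG1 and BTG2, AGO1 to AGO4, the TNRC6 genes, and the PUM genes. Of the 6309 genes in the authors' deposited table, 48 met this rule. SMG6, CNOT3, CNOT6L, EXOSC4, SKIV2L, PARN, BTG2 and TNRC6C were not analysed here.

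The cells were HL-60, an established human promyelocytic leukaemia line with the genotype given as WT. One group received decitabine, a deoxycytidine analogue that is built into DNA and traps DNA methyltransferases. The drug was dosed 3 times, at the start and after 24 and 48 hours, each time at 100 nM. The other group received DMSO, the solvent. Lysates of both groups were made at 72 hours, and total RNA was sequenced in 2 libraries from decitabine and 2 from DMSO cultures, per the labels. The ribosome-protected fragments, 17 to 35 nucleotides long, form 1 pool that carries no treatment label of its own. Of the 6 promyelocytic granule genes used to check the cell line (MPO, ELANE, AZU1, PRTN3, CTSG and LYZ), 6 were in the table, against 0 of 8 genes of red cells and platelets and 1 of 7 lymphoid genes (NKG7), which shows presence in the table and not a level.

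The value for each gene is the authors' coefficient for the drug, a change in translation efficiency, that is, in ribosome-protected mRNA relative to total mRNA. A positive coefficient was read as higher in decitabine-treated than in DMSO-treated cells, and the scale was read as a natural log, which the table does not state. There is 1 coefficient per gene and no value per library, so neither depth nor the spread between replicates is known. The error given is an implied standard error (SE), obtained by dividing the coefficient by the z score of its p-value, and intervals are 95% intervals from that SE. They hold no more error than the authors' model did, and that error may be technical.

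In the cytoplasm most mRNAs are first deadenylated, by PAN2-PAN3 and then by CCR4-NOT. They are then either decapped and digested from the 5′ end by XRN1, or digested from the 3′ end by the RNA exosome with the SKI complex. Proteins bound to the mRNA, such as Argonaute with its TNRC6 partners, Pumilio or the TOB and BTG adaptors, bring the deadenylases to it. Nonsense-mediated decay (NMD) acts on mRNAs whose ribosomes stop too early: the kinase SMG1 phosphorylates the helicase UPF1, and further SMG proteins, among them SMG5 and SMG6, then bind UPF1 and start decay.

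Of the 48 decay genes, SMG1 alone passed the threshold of an adjusted p below 0.05 over the whole table, and it was higher in decitabine-treated cells. This is 2.08% of the decay genes, beside a background of 0.634% of all 6309 genes called higher. None was lower, beside 0.174% of all genes, and in both directions together 0.808% of all genes were called. At an unadjusted p below 0.05 there were 5 decay genes, or 10.4% of the 48, beside 10.3% of all genes in the authors' deposited table. Of these, SMG1, CNOT1, CNOT7 and EXOSC9 were above 0, which is 8.33% of the 48 beside 8.35% of all genes. UPF2 was below 0, which is 2.08% beside 1.95%. The unadjusted shares lie close to the background, and the adjusted one rests on a single gene.

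**Figure D1:**
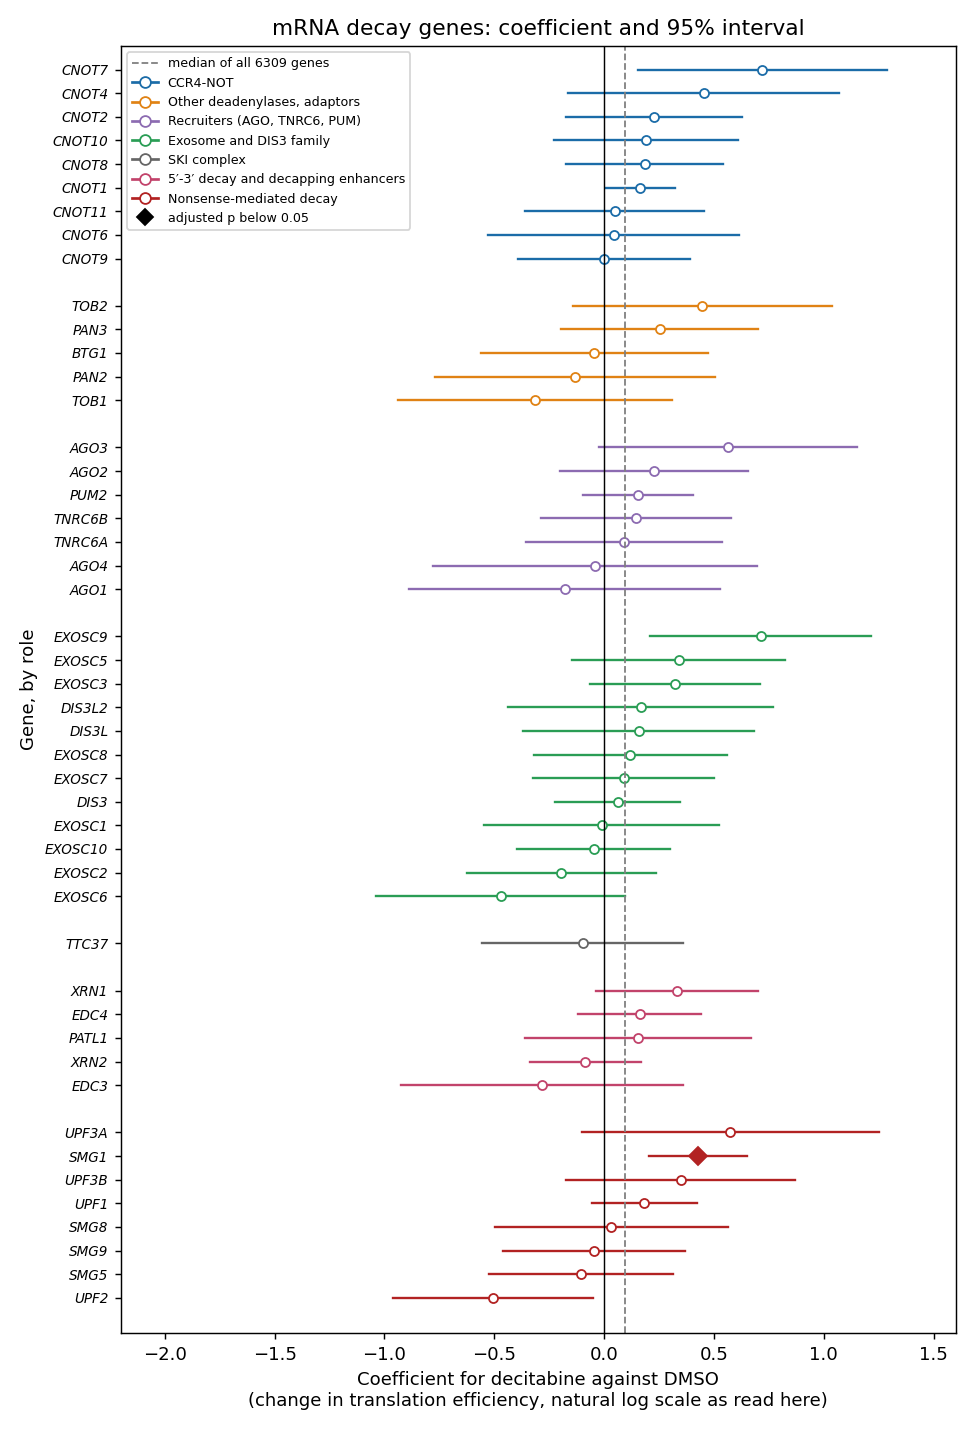
Coefficient of 47 of the 48 decay genes (x axis, natural log scale as read here) with its 95% interval from the implied SE, grouped by role down the page; a filled diamond marks an adjusted p below 0.05 and the dashed line the median of all genes, 0.095. SMG1 carries the only diamond, CNOT1, CNOT7 and EXOSC9 have intervals above 0 without it, and UPF2 has an interval below 0.

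The coefficients of the decay genes were centred slightly above 0, as were those of the whole table. Their median was 0.15, with quartiles at -0.04 and 0.23, against a median of 0.095 and quartiles at -0.08 and 0.26 over all genes in the authors' deposited table. Coefficients above 0 were found for 33 of the 48, or 68.8%, beside 65% of all genes, and 26 of the 48 lay above the median of all genes. The lowest was UPF2 and the highest CNOT7.

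**Figure D2:**
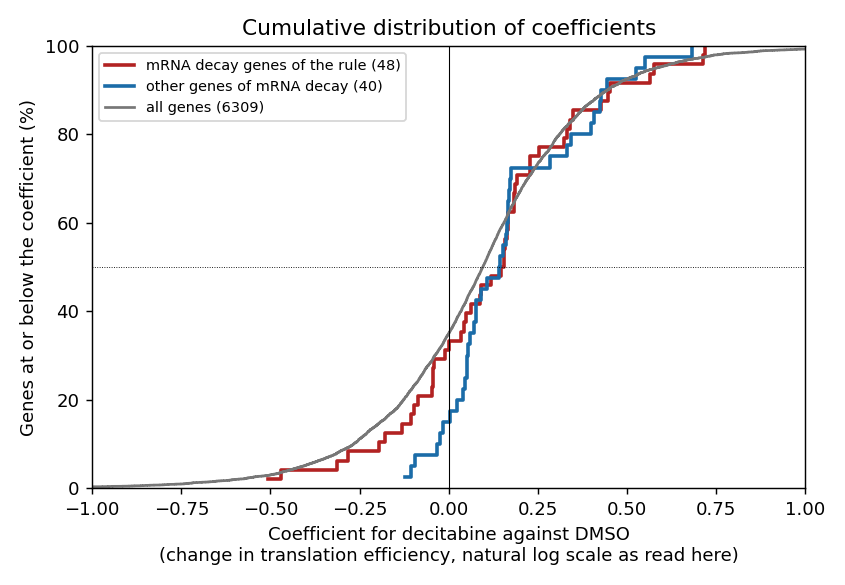
Cumulative share of genes (y axis, percent) at or below each coefficient (x axis) for the 48 decay genes, for 40 other genes of mRNA decay described further on, and for all 6309 genes. The curve of the 48 runs close to that of all genes and crosses 50% at 0.15, against 0.095 for all genes. The other decay genes hold 6 coefficients below 0 and 22 above the median of all genes.

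For SMG1, for EXOSC9, which had the next smallest p-value, and for UPF2, which had the lowest coefficient, the bases around the annotated transcription start are shown, because mRNAs that begin with a C followed by pyrimidines (the terminal oligopyrimidine, or TOP, class) form a class with its own translational control. Each line holds 15 bases before the start and the first 15 bases of the transcript, 5′ to 3′, from RefSeq on GRCh38.p14, the same assembly as the hg38 that the submitters name; capitals mark the first 5 transcribed bases. EEF1A1, which encodes an elongation factor and is a textbook TOP mRNA, is added for contrast.
SMG1 (chr16:18926394-18926423, minus strand): gggaggcggggaagcAGTGGccgtgtgagc
EXOSC9 (chr4:121801308-121801337, plus strand): ccgcgccttgatgacGTAATtttcctgcgc
UPF2 (chr10:12043156-12043185, minus strand): gccctggtttgaggtGCTGGtagtggctac
EEF1A1 (chr6:73521018-73521047, minus strand): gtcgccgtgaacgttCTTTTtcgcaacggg

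A start of this kind, a C at the first annotated base followed by 4 bases that are each C or T on the transcribed strand, was found in 0 of the 42 decay genes with a promoter entry. The share was 5.83% of 5146 genes of the table with an entry and 63.3% of 49 cytosolic ribosomal protein genes. With the run allowed to lie anywhere from 5 bases before the annotated start to the first 10 transcribed bases, 6 of the 42 held it (14.3%): BTG1, CNOT10, DIS3L2, TNRC6A, TTC37 and XRN2. The share of all 5146 genes was then 22.4%. The match describes these letters at 1 annotated start per gene, and the starts used in HL-60 cells were not measured.

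NMD held the only call. SMG1, the kinase that phosphorylates UPF1, rose with a coefficient of 0.43 ± 0.11 (implied SE) in the authors' deposited table, with an interval of 0.21 to 0.65, a p-value of 0.000161 and an adjusted p of 0.029. On a natural log scale this is 1.53 times the translation efficiency in DMSO (1.23 to 1.92). It would be 1.35 times if the coefficient were a log2 value. By p-value SMG1 ranked 35 among all genes, and its SE was lower than that of all but 5.86% of them. The coefficient itself was at percentile 89.1 of all genes.

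Zero was not at the centre of the authors' deposited table, whose median coefficient was 0.095. After subtraction of that median SMG1 had 0.33 and an adjusted p of 0.225, and no decay gene was called, beside 0.0793% of all genes called higher and 0.507% called lower. With the precision-weighted mean of all genes as zero, no decay gene was called either, beside 0.0951% higher and 0.491% lower. At an unadjusted p below 0.05 the centred coefficients of 3 decay genes (SMG1, CNOT7 and EXOSC9) were higher, or 6.25%, beside 3.69% of all genes around the median and 3.88% around the weighted mean, and UPF2 was lower, or 2.08%, beside 4.25% and 4.07%. SMG1 lies on chromosome 16 from 18804860 to 18926408 (whole-gene span). RefSeq lists 7 SMG1 pseudogenes, SMG1P1 to SMG1P7, all on chromosome 16, and none of them has a row in the table. The sources used here do not say how reads shared with these copies were assigned, and the SMG1 value is uncertain on that account.

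The partners of SMG1 did not pass, and their coefficients lay on both sides of 0. SMG8 and SMG9, which bind SMG1 and restrain its kinase activity, had 0.03 and -0.05 in the authors' deposited table. UPF1, the helicase that SMG1 phosphorylates, had 0.18 (interval -0.05 to 0.42) there and was among the more precise genes. SMG5, which binds phosphorylated UPF1, had -0.11 (interval -0.52 to 0.31) in the authors' deposited table. UPF1 lies on chromosome 19 from 18831959 to 18868230.

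UPF2, the bridge between UPF1 and the UPF3 proteins, had the lowest coefficient of the 48. Its value was -0.51 ± 0.23 (implied SE; interval -0.96 to -0.05) in the authors' deposited table, with a p-value of 0.0296 and an adjusted p of 0.406, so it did not pass. The interval of UPF2 and that of SMG1 did not overlap, but these genes were picked by their values. The difference between them was not tested. UPF3A and UPF3B, paralogs that link UPF2 to the exon junction complex, had 0.57 and 0.35 in the authors' deposited table, with intervals of -0.10 to 1.25 and -0.17 to 0.87. Over the 9 NMD genes the median coefficient was 0.18, and 6 (66.7%) were above 0, beside 65% of all genes. Above the median of all genes lay 5 of the 9. UPF3A also has 3 pseudogenes in RefSeq, which lists pseudogenes for 9 of the 48 decay genes. Besides SMG1, UPF3A and CNOT7 these are BTG1, CNOT4, DIS3L2, EXOSC3, EXOSC8 and TOB2. Their coefficients ran from -0.04 for BTG1 to 0.72 for CNOT7.

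**Figure D3:**
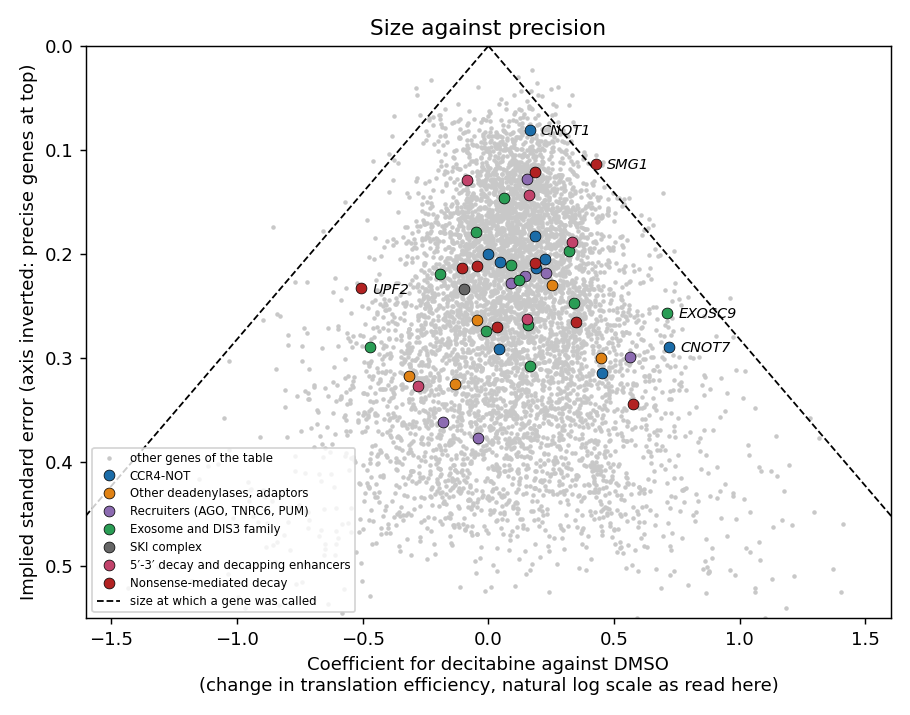
Coefficient (x axis) against implied SE (y axis, inverted so that precise genes stand at the top) for the decay genes, coloured by role, and other genes of the table in grey; dashed lines mark the size at which a gene was called at its SE. SMG1 lies just outside the line, CNOT1 is the most precise decay gene but well inside it, and CNOT7, EXOSC9 and UPF2 lie inside it at SEs of 0.29, 0.26 and 0.23.

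All 9 measured CCR4-NOT genes had coefficients above 0, from 0.00035 to 0.72, and none passed. Over all genes the share above 0 was 65%. CNOT1, the scaffold on which the complex is built, had 0.16 ± 0.08 (implied SE; interval 0.01 to 0.32, p-value 0.0405, adjusted p = 0.454) in the authors' deposited table. Its SE was the lowest of the 48 decay genes, and the upper end of its interval is 1.38 times the translation efficiency in DMSO. The median of the 9 was 0.18 in the authors' deposited table, and 6 of them lay above the median of all genes; after subtraction of that median CNOT6, CNOT9 and CNOT11 were below 0.

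The catalytic subunits lay between 0.04 and 0.72. CNOT7, a deadenylase of the CAF1 type, had the highest coefficient of the 48, 0.72 ± 0.29 (implied SE; interval 0.15 to 1.29), in the authors' deposited table, with a p-value of 0.0128 and an adjusted p of 0.287. Its paralog CNOT8, which takes the same place in the complex, had 0.18 (interval -0.17 to 0.54), and CNOT6, a deadenylase of the CCR4 type, had 0.04 (-0.53 to 0.61) in the authors' deposited table. The intervals of these 3 genes overlapped. RefSeq lists 2 CNOT7 pseudogenes.

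Of the non-catalytic subunits, CNOT2, part of the module that carries repressor contacts, had 0.23, and CNOT10 and CNOT11, which form a module at one end of CNOT1, had 0.19 and 0.05 in the authors' deposited table. CNOT9, the subunit that TNRC6 proteins bind, had the coefficient closest to 0, with an interval of -0.39 to 0.39. CNOT4, a ubiquitin ligase that associates loosely with the human complex, had 0.45 (interval -0.16 to 1.07) in the authors' deposited table. None of these genes had an unadjusted p below 0.05.

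Coefficients of the PAN2-PAN3 deadenylase and of the adaptors lay on both sides of 0. PAN3, the subunit that contacts the mRNA-bound proteins, had 0.25 ± 0.23 (implied SE; interval -0.20 to 0.70, p-value 0.27, adjusted p = 0.768) and PAN2, the nuclease, had -0.13 (interval -0.77 to 0.51) in the authors' deposited table. TOB2 and TOB1, paralogs that tether CAF1-type deadenylases to poly(A)-binding protein, had 0.45 ± 0.30 (implied SE; interval -0.14 to 1.04, p-value 0.135, adjusted p = 0.64) and -0.31 (interval -0.94 to 0.31) in the authors' deposited table. BTG1, of the same protein family, had -0.04. The intervals within each pair overlapped, and the median of these 5 genes was -0.04.

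The proteins that bring deadenylases to particular mRNAs did not pass either. AGO3 had 0.56 ± 0.30 (implied SE; interval -0.02 to 1.15, p-value 0.059, adjusted p = 0.504) in the authors' deposited table. AGO2, the Argonaute that can cut its target, had 0.23, AGO4 -0.04 and AGO1 -0.18 there. AGO4, AGO1 and AGO3 are neighbours on chromosome 1, between 35807636 and 36072500, and the intervals of all 4 Argonautes overlapped.

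TNRC6A and TNRC6B, the scaffolds that connect Argonaute to CCR4-NOT, had 0.09 and 0.15 in the authors' deposited table. PUM2, which binds its own sequence element in mRNAs, had 0.15 ± 0.13 (implied SE; interval -0.10 to 0.40, p-value 0.228, adjusted p = 0.736) in the authors' deposited table. Among the 7 recruiters the median was 0.15, and 4 of them lay above the median of all genes.

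The 12 genes of the exosome and the DIS3 family spread over nearly the whole range of the 48, with a median of 0.10. EXOSC9, a protein of the ring through which RNA is threaded, had 0.71 ± 0.26 (implied SE; interval 0.21 to 1.22) in the authors' deposited table, with a p-value of 0.00554 and an adjusted p of 0.191. EXOSC6, another ring protein, had -0.47 (interval -1.04 to 0.10) there, the second lowest value of the 48. The intervals of EXOSC9 and EXOSC6 did not overlap. These genes are the highest and lowest of the 12, picked by their values, and the difference between them was not tested.

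The ring proteins EXOSC5, EXOSC7 and EXOSC8 had 0.34, 0.09 and 0.12 in the authors' deposited table, between these extremes. The cap proteins that sit on the ring and bind RNA also differed in sign: EXOSC3 had 0.32 ± 0.20 (implied SE; interval -0.06 to 0.71, p-value 0.101, adjusted p = 0.595), EXOSC1 -0.01 and EXOSC2 -0.19 in the authors' deposited table. The intervals of the 3 cap proteins overlapped. EXOSC9 lies on chromosome 4 from 121801323 to 121817021 and EXOSC6 on chromosome 16 from 70246778 to 70251940.

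DIS3 and EXOSC10 had coefficients close to 0 and the lowest SEs of the 12, 0.15 and 0.18. DIS3, the main 3′ to 5′ exonuclease of the nuclear complex, had 0.06 (interval -0.22 to 0.35), and EXOSC10, the second nuclear nuclease, had -0.05 (-0.40 to 0.30) in the authors' deposited table. DIS3L, the cytoplasmic counterpart, and DIS3L2, which acts without the exosome on RNAs with a uridine tail, had 0.16 (interval -0.37 to 0.68) and 0.17 (-0.44 to 0.77) there, and the interval of DIS3L2 was the widest of the 12. MTREX, the nuclear exosome helicase once named SKIV2L2, is in the table under its newer name and so outside the rule; it had 0.02 (interval -0.32 to 0.36) in the authors' deposited table. TTC37, the scaffold of the SKI complex that feeds cytoplasmic mRNA to the exosome, had -0.10 ± 0.23 (implied SE; interval -0.55 to 0.36, p-value 0.679, adjusted p = 0.934) in the authors' deposited table.

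Digestion from the 5′ end was represented by 5 genes with a median of 0.15, and none passed. XRN1, the cytoplasmic 5′ to 3′ exonuclease, had 0.33 ± 0.19 (implied SE; interval -0.04 to 0.70, p-value 0.0778, adjusted p = 0.556) in the authors' deposited table. Its nuclear relative XRN2, which also acts in transcription termination, had -0.09 (interval -0.34 to 0.17), and the intervals of XRN1 and XRN2 overlapped. Of the decapping enhancers, EDC4, a scaffold, had 0.16 ± 0.14 (implied SE; interval -0.12 to 0.44, p-value 0.259, adjusted p = 0.762), EDC3 -0.28 and PATL1, which bridges deadenylated mRNA to decapping, 0.15 in the authors' deposited table.

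The precision of the values set which changes could have been called. The least significant call in the authors' deposited table had a p-value of 0.000389, so a gene needed a coefficient of 3.55 times its SE. For the decay genes the median SE was 0.23, with a lowest value of 0.08 for CNOT1 and a highest of 0.38 for AGO4, against a median of 0.25 over all genes. At that median a coefficient of 0.81 was needed, or 2.25-fold on a natural log scale, and no decay gene reached a coefficient of that size. CNOT1 would have needed 0.29, SMG1 0.40 and AGO4 1.34.

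Intervals that include 0 were found for 43 of the 48 genes, and such an interval does not show that translation efficiency was the same in both treatments. For 6 genes the interval lay within 1.5-fold in either direction on a natural log scale: CNOT1, PUM2, XRN2, DIS3, EXOSC10 and CNOT9. For 29 genes it lay within 2-fold. In the remaining genes, among them CNOT4, AGO1, AGO4, TOB1, PAN2 and UPF3A, the interval reached beyond 2-fold.

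Among other genes of mRNA decay, listed by role, few passed as well. Of 55 listed, 37 were in the authors' deposited table under the listed name and 3 under a newer one, and 1 of these 40 passed: KHSRP, which binds AU-rich elements and recruits decay enzymes, rose with 0.43 ± 0.11 (implied SE; interval 0.22 to 0.63, adjusted p = 0.0138). The background was 0.634% of all genes called higher and 0.174% called lower, and none of the 40 was lower. Their median was 0.14, beside 0.095 for all genes. Of the 40, 34 (85%) had coefficients above 0, beside 65% of all genes. Above the median of all genes lay 22 of the 40 (55%), beside 50% of all genes. After subtraction of the median of all genes KHSRP had 0.33 and an adjusted p of 0.153.

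TUT4, which adds uridines to RNA 3′ ends and was listed as ZCCHC11, had 0.68 ± 0.20 (implied SE; p-value 0.000685, adjusted p = 0.0654) in the authors' deposited table. LARP4, which binds poly(A) and protects mRNA from deadenylation, had 0.44 ± 0.15 (implied SE; p-value 0.00217, adjusted p = 0.131) in the authors' deposited table. DCP2, the decapping enzyme, had 0.55 (p-value 0.036, adjusted p = 0.429) and its activator DCP1A 0.14 (p-value 0.569, adjusted p = 0.903) in the authors' deposited table. Values of the remaining genes ran from -0.12 for EIF4ENIF1 to 0.52 for LSM6, a subunit of the ring that binds deadenylated mRNA. PABPC1, the main cytoplasmic poly(A)-binding protein, had 0.04 with an interval of -0.17 to 0.25.

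**Figure D4:**
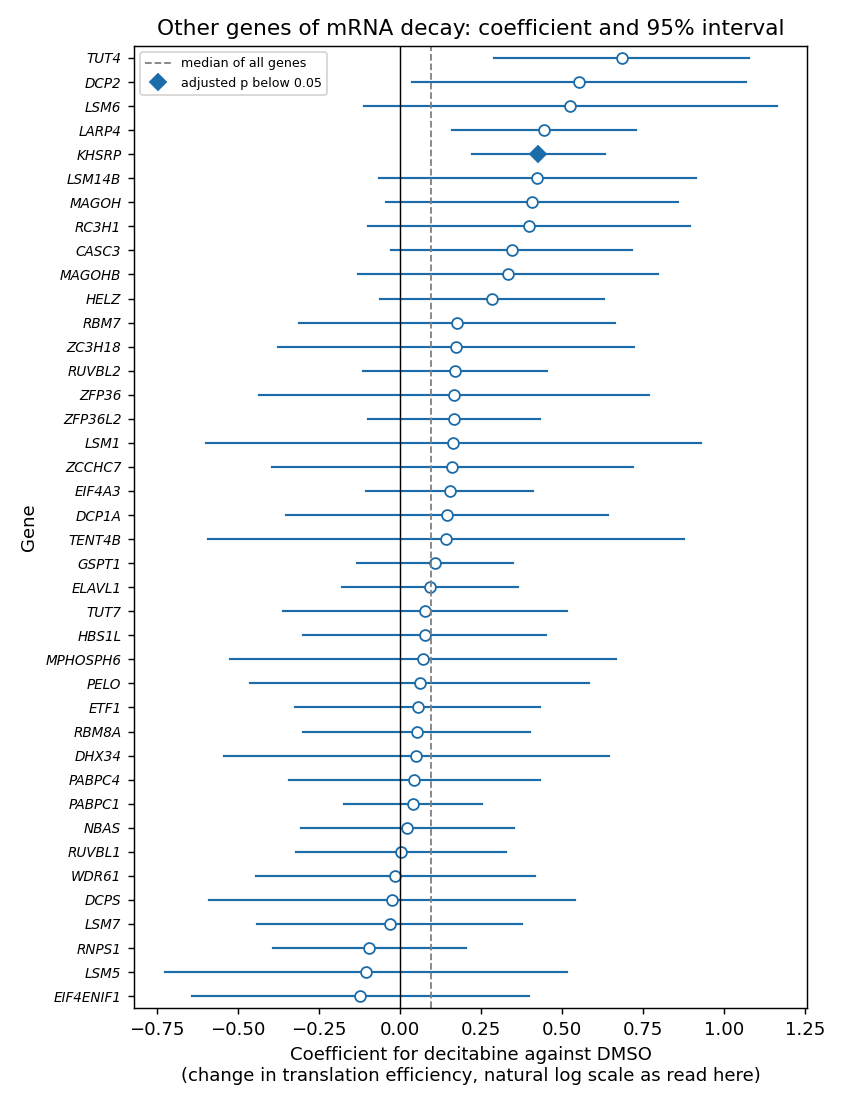
Coefficient (x axis, natural log scale as read here) with 95% interval for 40 other genes of mRNA decay, from highest at the top to lowest; the filled diamond marks an adjusted p below 0.05 and the dashed line the median of all genes. KHSRP carries the only diamond, TUT4, LARP4 and DCP2 have intervals above 0, and no interval lies below 0.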

How the data were processed

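Ribosome-protected fragments and total RNA of HL-60 cells were sequenced. Reads were handled with Bowtie2, SAMtools 1.11 and UMI-tools 1.1.1 on hg38, per the submitters' processing notes; the sources used here give neither the role of each tool nor the model, its filters and the handling of replicates. Per the file headers, the deposited values are a drug coefficient, read here as a natural log, with p-values before and after adjustment and a q-value. Benjamini-Hochberg adjustment of the deposited p-values over all 6309 genes returned the deposited adjusted values (largest difference 6.61e-14).

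From these were computed implied SEs, 95% intervals, centred coefficients and counts, with Python 3.11.15, numpy 2.4.6, scipy 1.17.1 and pandas 2.3.3, checked on simulated data. Counts per library were not analysed here, so no count test was run and depth is unknown. Gene names, pseudogenes and start sequences come from RefSeq (GRCh38.p14); 47 decay genes matched by symbol and TTC37 by an older one. Protein sequences were not used here. Each decay gene is named except 1, which is not reported here; full statistics are given for an unadjusted p below 0.05 and for the 2 smallest p-values per role. Of the other decay genes, the calls, the 4 smallest p-values, DCP1A and DCP2 were to be named; EIF4ENIF1, LSM6, PABPC1 and MTREX were added after their values were seen. Genes and lists were chosen with earlier results of these data known, so no list was tested.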

Additional observations from a re-analysis of the deposited data

How the results depend on the processing

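With no value per library, depth limits could not be assessed, and no replicate could be left out. No paired analysis was possible because the table holds 1 coefficient per gene and no column of a single library. The count of 1 decay gene called higher became 0 at an adjusted p below 0.01, 0 with the Benjamini-Yekutieli adjustment, 0 after centring on the table's median and 0 after centring on its precision-weighted mean; it was 1 at an adjusted p below 0.1, with the authors' q-value and without the 25% of genes with the largest implied SE. The adjusted p of SMG1 was 0.271 with Benjamini-Yekutieli, 0.225 after centring on the median and 0.216 after centring on the weighted mean, where its coefficient was 0.33 and 0.34. No decay gene was called lower under any of these 7 settings. Without adjustment, 3 decay genes were higher and 1 lower after either centring, against 4 and 1 as deposited. For the other genes of mRNA decay the count of 1 higher became 0 at an adjusted p below 0.01, with Benjamini-Yekutieli and after either centring, and 2 below 0.1.

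Centring lowers every coefficient by the same amount. After centring on the median and on the weighted mean, in that order, the median was 0.0551 and 0.0605 for the 48 decay genes, 0.0483 and 0.0537 for the other decay genes, 0.0889 and 0.0943 for CCR4-NOT, -0.139 and -0.134 for the other deadenylases and adaptors, 0.0516 and 0.0570 for the recruiters, 0.00918 and 0.0145 for the exosome, -0.192 and -0.186 for TTC37, 0.0587 and 0.0640 for 5′ to 3′ decay and 0.0889 and 0.0943 for NMD. A precision-weighted mean in place of the median gave 0.0749 for the other deadenylases and adaptors, where the sign turned, and 0.0727 for 5′ to 3′ decay. Without the imprecise genes, UPF3A among them, the NMD median was 0.109. In the same order of centring, coefficients that turned below 0 were -0.0471 and -0.0417 for CNOT11, -0.0521 and -0.0467 for CNOT6, -0.0946 and -0.0893 for CNOT9, -0.0334 and -0.0280 for DIS3, -0.00647 and -0.00110 for EXOSC7, and -0.0618 and -0.0565 for SMG8; TNRC6A turned to -0.00328 on the median alone. None of these genes passed before or after.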
